A study of Rattus norvegicus with 15 samples.

Results

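Bone of female Sprague-Dawley rats, sequenced as bulk poly(A) RNA, gave 15 libraries, 3 in each of 5 groups, and the 12 libraries of the ovariectomized groups are described here as 6 against 6: SYT and YJT on one side, Model and YJZYT on the other. Rats of the Blank group were untreated and kept their ovaries. Those of the Model group had their ovaries removed, the usual way to model bone loss after menopause in rats, and their condition is labelled Osteoporosis. The SYT, YJT and YJZYT rats were ovariectomized as well, so ovariectomy is shared by all 12 libraries, and the conditions of these groups are known here only by their labels. The title of the study is about a Chinese herbal medicine, Zhuanggu Zhitong Capsule, but no label ties it to one of the groups. No sham-operated group and no ages are labelled. The labels name no separate animals behind the replicate numbers, so a p-value here measures only how far these samples spread, and part or all of that spread may be technical.

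The 6 and 6 split was picked because skeletal muscle transcripts and transcripts of the mitochondrial genome divided the ovariectomized groups in this way. The differences between both sides are therefore a description of what chose the split, and they carry no test here. The muscle and mitochondrial levels of the groups placed together are also part of that choice and are compared without a test. Tests are given for SYT against YJT and Model against YJZYT over all genes, and for relations between measures within one side. Levels are in CPM, which sets every library's counts to the same total, scaled with trimmed mean of M-values (TMM) factors, and a log2 fold change is the mean of the SYT and YJT group means minus that of Model and YJZYT. Libraries are named by group and replicate number.

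Skeletal muscle fibres contract by sliding myosin thick filaments along actin thin filaments, a movement that calcium switches on through the troponin complex. Slow fibres and fast fibres build this machinery from different members of the same gene families, and slow fibres are richer in myoglobin and mitochondria. Mitochondria carry a small genome that encodes core subunits of the respiratory chain, while the remaining subunits are encoded in the nucleus. Bone is not a muscle tissue, but muscle and tendon attach to it, and marrow cells contain mitochondria of their own.

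Of the 81 tested genes of 6 skeletal muscle lists, 62 matched a RefSeq promoter of the GRCr8 assembly by Entrez gene identifier. This gave 66 windows of 250 bases ending just before the annotated start of transcription. Muscle transcription factors of the MyoD family bind E-boxes, and factors of the MEF2 family bind an A and T rich site. Both strands were searched, CAGCTG is one form of the general E-box CANNTG, and the other motifs were counted whether or not they overlapped one another. CAGCTG was found in 34.8% of the muscle windows and 12% of all 33469 promoter windows, and CTA and TAG with any 4 bases between them, a looser pattern than the MEF2 site, in 13.6% and 3.41%. At least 2 CANNTG were found in 53.0% and 30.8%, and CC and GG with any 6 bases between them in 81.8% and 65.1%. The site of the serum response factor has only A and T between CC and GG, so this last pattern also counts many windows without it. The site AAGGTCA of oestrogen-related receptors, which control mitochondrial genes, was found in 1.52% of the muscle windows and 3.99% of all windows. These letters are a description of the windows and do not show that a factor binds there. The 4 promoters shown are those of the muscle list genes that hold both CAGCTG and the CTA and TAG pattern and whose levels did not overlap between the 6 and the 6 libraries. Capitals mark these motifs.
Cox6a2, chr1:192219717-192219966, minus strand: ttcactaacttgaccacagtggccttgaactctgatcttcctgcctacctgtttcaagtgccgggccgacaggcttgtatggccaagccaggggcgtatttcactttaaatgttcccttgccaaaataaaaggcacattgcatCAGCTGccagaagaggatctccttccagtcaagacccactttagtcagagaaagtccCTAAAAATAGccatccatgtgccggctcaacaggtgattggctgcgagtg
Myoz2, chr2:213852779-213853028, minus strand: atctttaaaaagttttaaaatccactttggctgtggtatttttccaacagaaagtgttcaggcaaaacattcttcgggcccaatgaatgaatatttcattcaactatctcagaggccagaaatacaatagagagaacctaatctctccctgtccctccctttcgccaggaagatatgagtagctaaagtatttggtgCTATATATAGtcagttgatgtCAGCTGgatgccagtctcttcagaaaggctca
Klhl41, chr3:74841868-74842117, plus strand: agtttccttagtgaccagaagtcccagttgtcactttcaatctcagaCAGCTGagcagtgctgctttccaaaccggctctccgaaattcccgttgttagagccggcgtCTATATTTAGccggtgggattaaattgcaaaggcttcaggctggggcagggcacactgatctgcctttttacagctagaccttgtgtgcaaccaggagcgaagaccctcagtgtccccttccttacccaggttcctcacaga
Des, chr9:84299376-84299625, plus strand: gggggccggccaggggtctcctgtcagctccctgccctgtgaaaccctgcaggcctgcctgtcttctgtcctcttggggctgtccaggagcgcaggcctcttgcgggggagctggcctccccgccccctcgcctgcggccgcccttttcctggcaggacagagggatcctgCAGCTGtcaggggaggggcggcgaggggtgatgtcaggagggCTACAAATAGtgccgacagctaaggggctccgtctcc

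Counted back from the start of transcription, where -1 is the last base of each window, CAGCTG began at -107 in Cox6a2, -32 in Myoz2, -203 in Klhl41 and -79 in Des. The CTA and TAG pattern began at -50, -53, -142 and -37 in the same order, and in Des the bases between CTA and TAG include a C. The windows hold only bases upstream of the start, so both motifs lie upstream in all 4 by construction. The CTA and TAG pattern was nearer to the start than CAGCTG in Cox6a2, Klhl41 and Des and farther from it in Myoz2. These genes encode a muscle form of a cytochrome c oxidase subunit, the slow fibre Z-disc protein calsarcin-1, a protein that stabilises the sarcomere, and the muscle intermediate filament desmin.

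Library totals ran from 64472700 to 74255667 counts, and 17657 of 22468 genes had enough counts to be tested. The labelled tissue was checked against bone markers: Col1a1, the main collagen of bone, made up 0.228% to 7.10% of counts in SYT and YJT and 0.226% to 4.75% in Model and YJZYT. YJT3 and YJZYT3 were the lowest in Col1a1, with 2109 and 2431 CPM against 12912 CPM or more in the other 5 libraries of SYT and YJT and 13733 CPM or more in the other 5 of Model and YJZYT. These 2 libraries lie on opposite sides of the split. SYT1 stands apart from the other 5 libraries of its side in the muscle genes, as given below, and the muscle counts that change most without it are given both ways.

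Muscle transcripts made up a larger share of counts in SYT and YJT than in Model and YJZYT, with 1 exception. The 81 muscle genes took 0.217%, 0.107% and 0.266% of counts in Model1 to Model3, 0.227%, 0.0717% and 0.111% in YJZYT1 to YJZYT3, 0.199%, 0.650% and 0.741% in SYT1 to SYT3, and 0.793%, 0.650% and 0.696% in YJT1 to YJT3. Of the 6 SYT and YJT libraries, 5 lay above all 6 of the other side, while SYT1 lay inside the range of Model and YJZYT. The mean was 0.622% ± 0.214 (SD, n = 6) against 0.167% ± 0.0795 (SD, n = 6). Blank held 1.07%, 0.810% and 1.33%, so each Blank library was above each of the 12 ovariectomized libraries. In bulk RNA, fewer muscle cells in a sample and less RNA per muscle cell cannot be told apart.

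The 37 genes of the mitochondrial genome, its transfer and ribosomal RNAs included, took 9.17%, 11.8% and 12.9% of counts in Model1 to Model3 and 15.6%, 6.43% and 9.16% in YJZYT1 to YJZYT3. They took 25.5%, 12.9% and 15.9% in SYT1 to SYT3 and 21.7%, 18.5% and 11.8% in YJT1 to YJT3. The means were 17.7% ± 5.25 (SD, n = 6) and 10.9% ± 3.27 (SD, n = 6), and the sides overlapped, since YJT3 and SYT2 lay below YJZYT1. Blank, the highest group in muscle transcripts, was at the low end here with 6.07%, 10.7% and 7.44%. The 95% Wilson intervals reach at most 0.00274 percentage points to either side of a muscle share and 0.0105 of a mitochondrial share, and cover counting error only.

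**Figure D1:**
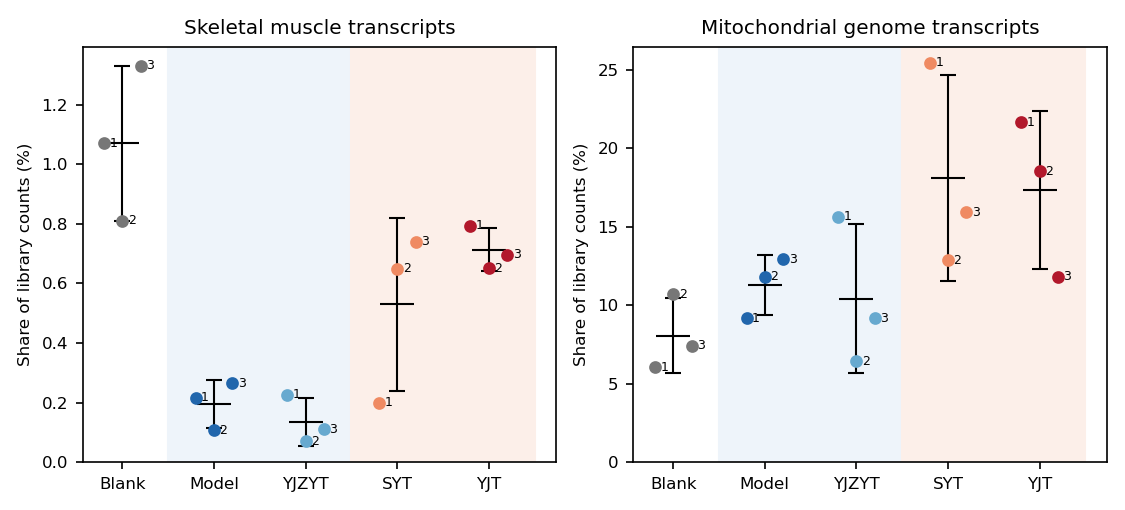
Share of library counts (%) on 81 skeletal muscle genes (left) and on the 37 genes of the mitochondrial genome (right). Points are libraries numbered by replicate, dashes and bars the group mean and SD (n = 3), blue shading marks Model and YJZYT and red shading SYT and YJT. SYT1 is the single SYT or YJT library with a muscle share (0.199%) inside the range of Model and YJZYT, and it has the highest mitochondrial share (25.5%).

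By group, the muscle share had a mean of 0.530% ± 0.290 (SD, n = 3) in SYT and 0.713% ± 0.0731 in YJT, and of 0.197% ± 0.0811 in Model and 0.137% ± 0.0808 in YJZYT. The mitochondrial share was 18.1% ± 6.56 in SYT and 17.3% ± 5.03 in YJT (SD, n = 3), and 11.3% ± 1.93 in Model and 10.4% ± 4.73 in YJZYT. The groups were placed together by these shares, so how near the paired means lie is a description and does not show that the paired groups are alike.

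Over all tested genes, 37 were past an adjusted p of 0.05 on the higher side of the split in edgeR's quasi-likelihood fit, which is 0.21% of genes, and 0 on the lower side (0%). At an unadjusted p under 0.05, 950 genes were higher and 217 lower, 6.61% of all genes, and DESeq2 called 441 higher and 8 lower. Leaving out 1 library moved the 37 to between 0 (without YJT2) and 218 (without YJZYT1). Since the split was chosen on this contrast, these counts are given as a description and nothing is read from them. The 37 held 8 genes of the muscle lists, 29 other genes and 0 genes of the mitochondrial genome, of which 13 protein genes had an unadjusted p under 0.05 and 1 was called by DESeq2.

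All 6 libraries of SYT and YJT were above all 6 of Model and YJZYT for 115 genes (0.651%), and all were below for 6 genes (0.034%). Of the 115, 26 were on the muscle lists, 89 were not, and 0 came from the mitochondrial genome. Without SYT1, 327 genes were separated upward and 15 downward, and without Model3 241 and 13. The genes described first are the 10 separated genes with the smallest p that had a symbol and at least 1 FPKM (a level per transcript length). Gene positions come from the deposited table, and no source used here gives their genome build.

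Tnnc1 (ENSRNOG00000018943, chromosome 16, 7292096 to 7295465) encodes the calcium-binding troponin subunit of slow and cardiac muscle. Tnnc1 stood at 21.1, 16.1 and 27.5 CPM in Model1 to Model3, 20.7, 11.96 and 21.5 in YJZYT1 to YJZYT3, 104, 44.7 and 71.8 in SYT1 to SYT3, 117, 109.6 and 55.2 in YJT1 to YJT3, and 75.97, 69.3 and 79.2 in Blank1 to Blank3. The lowest SYT or YJT library, SYT2, held more than the highest library of the other side, Model3, and the log2 fold change was 2.07 ± 0.25 (SE). The 3 Blank libraries lay within the range of SYT and YJT, and SYT1 was not low in this gene.

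Cacng1 (ENSRNOG00000003245, chromosome 10), the gamma subunit of the skeletal muscle voltage-gated calcium channel, had the largest difference of these 10 genes. Cacng1 stood at 1.59, 0.323 and 1.72 CPM in Model1 to Model3, 0.743, 0.0963 and 0.200 in YJZYT1 to YJZYT3, 2.11, 6.9 and 8.68 in SYT1 to SYT3, 9.0, 9.21 and 6.57 in YJT1 to YJT3, and 9.79, 11.3 and 14.7 in Blank1 to Blank3. The lowest value of SYT and YJT was in SYT1, which came within 1 CPM of Model1 and Model3. Its log2 fold change was 3.43 ± 0.53 (SE).

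Tmod4 caps actin filaments at their pointed ends in skeletal muscle, and Adssl1 makes the precursor of AMP in muscle. Tmod4 stood at 4.54, 2.15 and 7.81 CPM in Model1 to Model3, 5.02, 1.13 and 2.2 in YJZYT1 to YJZYT3, 10.6, 20.8 and 26.6 in SYT1 to SYT3, 25.3, 25.1 and 18.8 in YJT1 to YJT3, and 31.04, 29.8 and 39.95 in Blank1 to Blank3. Adssl1 stood at 16.3, 11.8 and 12.2 CPM in Model1 to Model3, 14.3, 6.67 and 11.8 in YJZYT1 to YJZYT3, 21.4, 33.6 and 40.4 in SYT1 to SYT3, 39.4, 40.1 and 37.4 in YJT1 to YJT3, and 56.1, 49.8 and 67.4 in Blank1 to Blank3. For both genes SYT1 was the lowest of its side and the remaining 5 libraries lay well clear of Model and YJZYT. The log2 fold changes were 2.52 ± 0.38 (SE) for Tmod4 and 1.54 ± 0.20 (SE) for Adssl1.

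Among the remaining 6 of the 10, Fitm1, a lipid droplet protein of muscle, had 1.36 to 6.08 CPM (median 3.79) in SYT and YJT and 0.261 to 1.27 CPM (median 0.562) in Model and YJZYT, with a log2 fold change of 2.60 ± 0.42 (SE). Mlf1, first known from a leukaemia fusion and also made in muscle, had 6.6 to 21.03 CPM (median 17.2) in SYT and YJT and 3.6 to 5.49 CPM (median 4.29) in Model and YJZYT. Sh3bgr, a heart and skeletal muscle protein, had 9.93 to 23.2 CPM (median 20.4) in SYT and YJT and 3.2 to 7.4 CPM (median 5.61) in Model and YJZYT. Itgb1bp2 (melusin), a partner of the beta-1 integrin in muscle, had 5.14 to 7.98 CPM (median 6.09) in SYT and YJT and 2.63 to 3.8 CPM (median 2.95) in Model and YJZYT, and Pkia, which blocks protein kinase A, had 8.78 to 19.4 CPM (median 12.5) in SYT and YJT and 4.35 to 7.74 CPM (median 4.82) in Model and YJZYT. Aldh1a1, which makes retinoic acid and is not specific to muscle, had 2.95 to 7.09 CPM (median 5.33) in SYT and YJT and 0.22 to 1.5 CPM (median 1.06) in Model and YJZYT. The log2 fold changes of these 5 genes were 1.79 ± 0.22 (SE), 1.86 ± 0.25 (SE), 1.0 ± 0.15 (SE), 1.15 ± 0.18 (SE) and 2.38 ± 0.37 (SE). The sides did not overlap in any of the 6, as the rule requires.

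The 3 genes named on the lower side by the same rule differed little in size. Eri2, an exonuclease of the ERI family, had 10.8 to 15.5 CPM (median 14.3) in SYT and YJT and 16.1 to 22.6 CPM (median 16.9) in Model and YJZYT, Nol8, a nucleolar protein, had 7.36 to 9.53 CPM (median 9.03) in SYT and YJT and 9.63 to 13.2 CPM (median 11.3) in Model and YJZYT, and Rars2, the mitochondrial arginyl-tRNA synthetase, had 5.1 to 7.3 CPM (median 6.94) in SYT and YJT and 7.5 to 9.22 CPM (median 7.82) in Model and YJZYT. Their log2 fold changes were -0.40 ± 0.13 (SE), -0.37 ± 0.15 (SE) and -0.29 ± 0.13 (SE). For each of them the sides were separated by less than 1 CPM.

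Muscle genes are given next by their role, in 6 lists. Of the 81 tested members, 80 had a positive log2 fold change with a median of 2.51, beside 51.3% positive and a median of 0.01 over all tested genes. The sides did not overlap for 26 of the 81, for 64 without SYT1 and for 37 without Model3. Over all tested genes the matching counts higher in SYT and YJT were 115 (0.651%), 327 and 241. Some well known muscle genes on the lists, such as Myh1, Myh2, Ttn and Atp2a1, were not analysed here.

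Fast fibre genes, which build the contractile machinery of quick and strong fibres, were higher in SYT and YJT for 11 of 11 members, and their median difference on the log2 scale was 2.49. Acta1 (ENSRNOG00000017786, chromosome 19), the actin of skeletal muscle thin filaments, was the single member whose sides did not overlap. Acta1 stood at 181, 30.7 and 260.3 CPM in Model1 to Model3, 211, 5.56 and 57.5 in YJZYT1 to YJZYT3, 275, 889 and 1059 in SYT1 to SYT3, 1218, 1063 and 968 in YJT1 to YJT3, and 1627, 1073 and 1941 in Blank1 to Blank3. Per length, its mean level was 528 FPKM in SYT and YJT, 79.5 in Model and YJZYT and 1021 in Blank, and its log2 fold change was 2.90 ± 0.70 (SE). YJZYT2, with 5.56 CPM, held the least Acta1 of all 15 libraries.

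Mylpf and Myl1 encode light chains of fast myosin, and Tnnt3 the fast troponin subunit that binds tropomyosin. Mylpf stood at 79.9, 62.6 and 63.5 CPM in Model1 to Model3, 74.4, 9.65 and 40.4 in YJZYT1 to YJZYT3, 50.5, 266 and 358 in SYT1 to SYT3, 226, 309 and 230.4 in YJT1 to YJT3, and 430.2, 701 and 572 in Blank1 to Blank3. Tnnt3 stood at 70.3, 31.1 and 50.9 CPM in Model1 to Model3, 63.2, 2.72 and 20.98 in YJZYT1 to YJZYT3, 18.4, 280.0 and 329 in SYT1 to SYT3, 183, 213 and 227 in YJT1 to YJT3, and 389, 306 and 509 in Blank1 to Blank3. SYT1 was low in both and lay inside the range of Model and YJZYT. Their log2 fold changes were 2.17 ± 0.47 (SE) and 2.44 ± 0.68 (SE), and that of Myl1 was 2.61 ± 0.62 (SE). Myh4, the fastest myosin heavy chain, was added after its values were seen: it held 20.03 CPM in SYT1 and 499 to 784 CPM in the other 5 libraries of SYT and YJT. Without SYT1, 10 of the 11 fast fibre genes were separated between the sides.

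Slow fibre genes, of fibres built for endurance and posture, were higher in SYT and YJT for 10 of 10 members, with a median of 3.12, and 7 of them did not overlap (9 without SYT1 or without Model3). Tnnt1 is the slow form of the tropomyosin-binding troponin subunit, and Myoz2 tethers calcineurin to the Z-disc of slow fibres. Tnnt1 stood at 14.4, 2.09 and 42.1 CPM in Model1 to Model3, 20.1, 3.08 and 5.24 in YJZYT1 to YJZYT3, 77.2, 62.02 and 115 in SYT1 to SYT3, 185, 137 and 65.6 in YJT1 to YJT3, and 105, 63.6 and 107 in Blank1 to Blank3. Myoz2 stood at 3.99, 0.281 and 15.5 CPM in Model1 to Model3, 3.74, 0.592 and 0.849 in YJZYT1 to YJZYT3, 18.5, 25.3 and 36.9 in SYT1 to SYT3, 49.9, 39.3 and 20.6 in YJT1 to YJT3, and 44.5, 24.8 and 34.98 in Blank1 to Blank3. SYT1 lay between SYT2 and SYT3 in Tnnt1 and was the lowest of its side in Myoz2, and on the other side Model3 was highest in both. The log2 fold changes were 2.94 ± 0.62 (SE) and 3.22 ± 0.71 (SE).

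Myl2, the regulatory light chain of slow and cardiac myosin, was listed at 0 counts in YJZYT1, YJZYT2, YJZYT3 and Model2. Myl2 stood at 1.5, 0 and 6.28 CPM in Model1 to Model3, 0, 0 and 0 in YJZYT1 to YJZYT3, 12.2, 12.8 and 21.1 in SYT1 to SYT3, 32, 20.1 and 14.1 in YJT1 to YJT3, and 23.7, 12.97 and 23.7 in Blank1 to Blank3. The ratio of the mean CPM of both sides was 14.4. YJZYT1 was at 0 for Myl2 while it held 19.01 CPM of Myl3, the other light chain of slow myosin, and 37.8 CPM of Myh7, its heavy chain, both named after their values were seen. A 0 for Myl2 there may thus be a failed estimate as well as a low level, and the fitted fold change is not given.

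SYT1 therefore differed from the other libraries in the balance of slow and fast genes. A list score is the median deviation of a list's genes from their mean over the 15 libraries, in log2 CPM. The fast score was -2.35 in SYT1 and between 1.18 and 1.61 in the other 5 libraries of SYT and YJT, while the slow score was 1.10 in SYT1 and between 1.10 and 2.33 in the others. The slow score minus the fast score was 3.44 in SYT1, the largest of the 15 libraries, and -3.0 in Model2, the smallest. The remaining 13 libraries lay between -1.11 and 1.39.

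**Figure D2:**
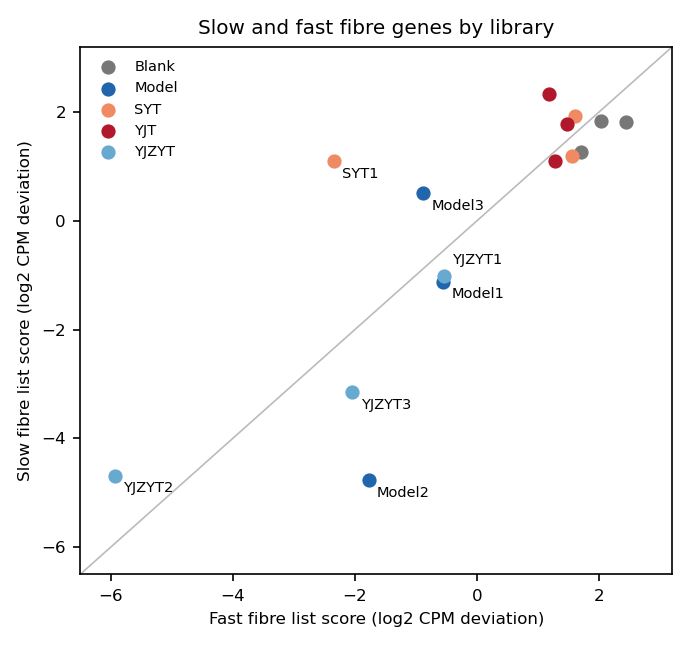
List score of slow fibre genes (vertical axis) against that of fast fibre genes (horizontal axis), both as median deviations in log2 CPM. Each point is a library coloured by group and the line marks equal scores. SYT1 sits at -2.35 on the fast axis and 1.10 on the slow axis, and YJZYT2 is lowest in fast genes at -5.94.

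Sarcomere scaffold genes, which anchor and align the filaments, were higher in SYT and YJT for 17 of 17 members with a median of 2.57, and 8 did not overlap. Des stood at 20.3, 7.45 and 35.9 CPM in Model1 to Model3, 27.4, 2.09 and 6.83 in YJZYT1 to YJZYT3, 44.01, 104 and 134 in SYT1 to SYT3, 157, 167 and 94.6 in YJT1 to YJT3, and 179, 136 and 216 in Blank1 to Blank3. Desmin links neighbouring Z-discs, and SYT1 was again the lowest of its side while YJZYT1 and Model3 were the highest of the other. Klhl41 stood at 5.59, 1.49 and 13.96 CPM in Model1 to Model3, 9.33, 1.8 and 4.2 in YJZYT1 to YJZYT3, 15.9, 26.1 and 38.3 in SYT1 to SYT3, 58.03, 48.4 and 35.9 in YJT1 to YJT3, and 41.3, 38.4 and 54.6 in Blank1 to Blank3. Myom1 stood at 6.83, 1.84 and 6.62 CPM in Model1 to Model3, 5.53, 1.44 and 3.83 in YJZYT1 to YJZYT3, 8.45, 19.9 and 21.6 in SYT1 to SYT3, 30.02, 23.4 and 19.2 in YJT1 to YJT3, and 27.96, 22.5 and 29.98 in Blank1 to Blank3. Myom1 (myomesin) crosslinks thick filaments at the M-band, and SYT1 held 8.45 CPM of it against 6.83 in Model1. The log2 fold changes of Des, Klhl41 and Myom1 were 2.84 ± 0.56 (SE), 2.57 ± 0.49 (SE) and 2.23 ± 0.38 (SE), and that of Trim54, a ring finger protein of the sarcomere, was 2.91 ± 0.57 (SE). Without SYT1 all 17 members were separated.

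Calcium handling genes, which couple the nerve impulse to calcium release, were higher in SYT and YJT for 13 of 13 members with a median of 2.43. Besides Cacng1, 1 member, Casq2, did not overlap, and Stac3, an adaptor of the calcium channel, Jph1, which joins surface and store membranes, and Hrc, a calcium-binding protein of the store, overlapped. Stac3 had 3.46 to 13.4 CPM (median 12.9) in SYT and YJT and 0.674 to 3.58 CPM (median 1.49) in Model and YJZYT, Jph1 2.53 to 9.8 CPM (median 7.76) in SYT and YJT and 0.787 to 2.91 CPM (median 1.72) in Model and YJZYT and Hrc 7.35 to 32.5 CPM (median 27.5) in SYT and YJT and 1.21 to 9.73 CPM (median 4.13) in Model and YJZYT. In these 3 genes the lowest library of SYT and YJT was SYT1. Their log2 fold changes were 2.52 ± 0.41 (SE), 2.08 ± 0.36 (SE) and 2.48 ± 0.48 (SE). Without SYT1, 9 of the 13 were separated, without Model3 5 and without YJZYT1 4.

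Muscle energy genes, which supply and buffer ATP, were higher in SYT and YJT for 14 of 14 members with a median of 2.30, and 4 did not overlap: Adssl1, Cox6a2, Fabp3 and Mb. Without SYT1, 13 of the 14 did not overlap. Cox6a2 stood at 6.67, 2.78 and 9.92 CPM in Model1 to Model3, 4.03, 0.468 and 1.37 in YJZYT1 to YJZYT3, 10.3, 26.6 and 37.1 in SYT1 to SYT3, 33.8, 30.3 and 21.9 in YJT1 to YJT3, and 39.4, 31.03 and 50.4 in Blank1 to Blank3. Cox6a2, whose promoter is printed above, was within 1 CPM of overlap, since SYT1 and Model3 nearly met. Fabp3 stood at 7.18, 2.68 and 20.8 CPM in Model1 to Model3, 8.71, 1.11 and 2.6 in YJZYT1 to YJZYT3, 31.5, 30.9 and 50.1 in SYT1 to SYT3, 67.5, 51.9 and 30.3 in YJT1 to YJT3, and 49.8, 58.6 and 68.8 in Blank1 to Blank3. Fabp3 carries fatty acids in slow muscle and heart, and SYT1 was not low in it. Their log2 fold changes were 2.90 ± 0.49 (SE) and 2.73 ± 0.52 (SE), and that of Ckmt2, the mitochondrial creatine kinase of muscle, was 2.90 ± 0.61 (SE). Myoglobin (Mb), the oxygen store of muscle, had 177 to 481 CPM (median 333) in SYT and YJT and 2.72 to 123 CPM (median 39.98) in Model and YJZYT and a log2 fold change of 2.88 ± 0.64 (SE).

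Genes that set up, innervate or break down muscle were higher in SYT and YJT for 15 of 16 members with a median of 2.61, and 4 did not overlap (6 without SYT1 or without Model3). Myog stood at 0.365, 0.0562 and 0.662 CPM in Model1 to Model3, 0.282, 0.055 and 0.166 in YJZYT1 to YJZYT3, 1.1, 1.43 and 2.05 in SYT1 to SYT3, 3.16, 2.56 and 0.842 in YJT1 to YJT3, and 2.57, 2.52 and 2.36 in Blank1 to Blank3. Myog, a transcription factor of muscle differentiation, thus separated the sides at levels near 1 CPM, with a log2 fold change of 2.88 ± 0.54 (SE). Ankrd2, a stretch-responsive protein of slow fibres, had 16.4 to 42.8 CPM (median 22.02) in SYT and YJT and 0.0963 to 10.1 CPM (median 1.41) in Model and YJZYT, with a log2 fold change of 3.33 ± 0.82 (SE). Trim63 (MuRF1) and Fbxo32 (atrogin-1), the ubiquitin ligases of muscle wasting, were unlike in size, with 2.62 ± 0.71 (SE) for Trim63 and 0.85 ± 0.31 (SE) for Fbxo32, and both overlapped. Mef2c and Mef2d, transcription factors also used outside muscle, differed by 0.04 ± 0.22 (SE) and -0.10 ± 0.14 (SE). Pax7, which marks muscle stem cells, was at 0 counts in all 3 YJZYT libraries and at or below 0.321 CPM in the others, too low to compare.

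Apart from muscle, all 13 protein genes of the mitochondrial genome were higher in SYT and YJT, by log2 fold changes from 0.79 to 0.93 with SEs from 0.28 to 0.36, and all 13 overlapped between the sides. Mt-co1 stood at 26240.3, 37016 and 35061 CPM in Model1 to Model3, 48969, 19121 and 30853 in YJZYT1 to YJZYT3, 88221, 42243 and 49934 in SYT1 to SYT3, 75839, 64527 and 34969.8 in YJT1 to YJT3, and 18338, 29691 and 20953 in Blank1 to Blank3. Mt-co1 encodes the catalytic subunit of cytochrome c oxidase, and YJZYT1 held more of it than SYT2 and YJT3. Mt-nd5 stood at 2622, 2378 and 3809 CPM in Model1 to Model3, 5518, 1869 and 2472 in YJZYT1 to YJZYT3, 6987, 5081 and 5800.4 in SYT1 to SYT3, 6425, 7258 and 3931 in YJT1 to YJT3, and 1606, 2944 and 2178 in Blank1 to Blank3. Mt-nd5, a proton-pumping subunit of complex I, had the largest log2 fold change, 0.93 ± 0.29 (SE), and Mt-nd4, another subunit of complex I, the smallest, 0.79 ± 0.31 (SE). Mt-nd6, the protein gene carried on the opposite strand, differed by 0.87 ± 0.30 (SE), within the range of the rest. The median over the 13 genes was 0.85, 0.65 without SYT1 and 1.06 without YJZYT1.

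Subunits of the same respiratory chain that are encoded in the nucleus did not share this difference in size. Of 47 tested, 30 were higher and 17 lower in SYT and YJT, with a median of 0.04 and a range from -0.13 to 0.18; without scaling factors 4 of 47 were higher, without YJT2 21 and without Model2 45. At an unadjusted p under 0.05 and by DESeq2, 0 of the 47 were called. Over all tested genes these calls were 6.61% at the unadjusted p, and 441 higher and 8 lower by DESeq2. Ndufs7, of complex I, had 35.7 to 43.02 CPM (median 41.9) in SYT and YJT and 30.5 to 38.7 CPM (median 37.1) in Model and YJZYT, and Cox6a1, the form of the cytochrome c oxidase subunit found outside muscle, had 97.5 to 133 CPM (median 115) in SYT and YJT and 111 to 139 CPM (median 126) in Model and YJZYT. The log2 fold change of Cox6a1 was -0.11 ± 0.10 (SE), beside 2.90 ± 0.49 (SE) for its muscle form Cox6a2. Genes that copy, transcribe and maintain the mitochondrial genome were higher for 6 of 20 members and lower for 14, with a median of -0.04 (lowest and highest with 1 library left out -0.12 without SYT1 to -0.01 without Model2). Polg, the mitochondrial DNA polymerase, differed by -0.20 ± 0.09 (SE), Pnpt1, which degrades mitochondrial RNA, by -0.29 ± 0.12 (SE), and Esrra, an oestrogen-related receptor, by 0.28 ± 0.14 (SE).

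Fatty acid oxidation genes were higher in SYT and YJT for 21 of 21 tested, with a median of 0.34, and 20 of 21 without scaling factors. Of these, 3 did not overlap, beside 0.651% of all tested genes, and 5 without SYT1 or without Model3. Cpt1b stood at 6.74, 4.94 and 9.67 CPM in Model1 to Model3, 6.15, 1.82 and 3.16 in YJZYT1 to YJZYT3, 9.73, 16.2 and 19.4 in SYT1 to SYT3, 28.1, 22.2 and 14.2 in YJT1 to YJT3, and 21.1, 15.3 and 23.1 in Blank1 to Blank3. Cpt1b is the muscle form of the enzyme that admits fatty acids to mitochondria, and its log2 fold change was 1.81 ± 0.31 (SE). Acadm stood at 52.3, 57.1 and 58.5 CPM in Model1 to Model3, 54.7, 57.4 and 49.6 in YJZYT1 to YJZYT3, 68.6, 65.1 and 86.3 in SYT1 to SYT3, 74.6, 71.5 and 81.2 in YJT1 to YJT3, and 70.6, 91.3 and 101 in Blank1 to Blank3. Acaa2 stood at 54.3, 51.2 and 41.8 CPM in Model1 to Model3, 42.9, 57.9 and 58.9 in YJZYT1 to YJZYT3, 67.5, 68.99 and 75.7 in SYT1 to SYT3, 71.1, 69.2 and 71.1 in YJT1 to YJT3, and 59.6, 79.5 and 70.7 in Blank1 to Blank3. Acadm and Acaa2, which act in the oxidation spiral of many tissues, were separated with narrower ranges and differed by 0.44 ± 0.11 (SE) and 0.47 ± 0.11 (SE). For both of them Blank overlapped SYT and YJT. Ucp3, a mitochondrial carrier of muscle, and Pdk4, which holds back glucose oxidation, overlapped, with 1.87 ± 0.39 (SE) and 2.16 ± 0.59 (SE).

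**Figure D3:**
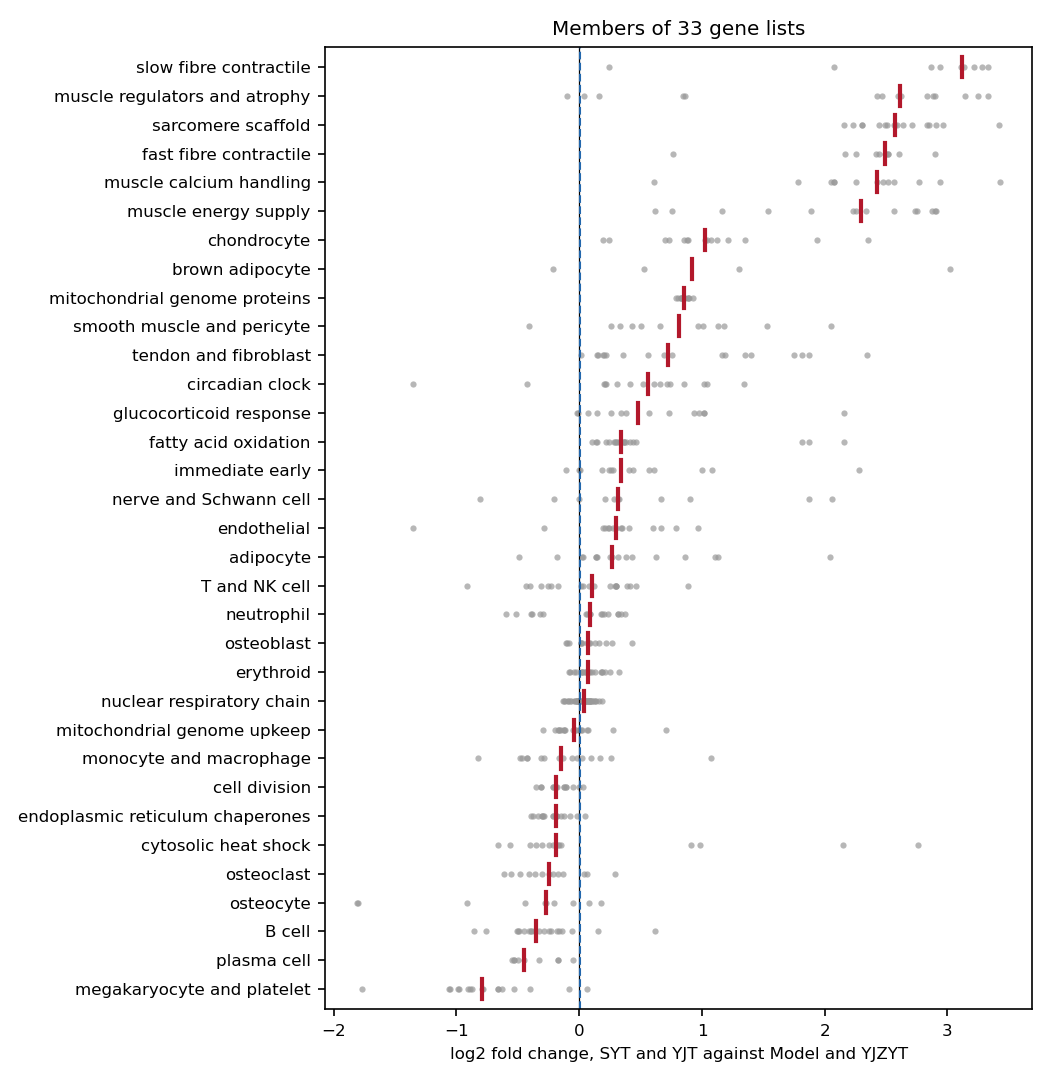
Log2 fold changes of SYT and YJT against Model and YJZYT for the tested members of 33 gene lists. Grey points are genes, red marks the list medians, and the dashed blue line the median of all tested genes (0.01); Myl2 and Pax7, at 0 counts in a group, are left out as points. The 6 muscle lists have medians from 2.30 to 3.12, the mitochondrial genome proteins 0.85 and the nuclear respiratory chain 0.04.

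How the differences among the 4 ovariectomized groups fall on the split varies by list. The sum of squares among the 4 group means of a gene was divided into the split, SYT against YJT, and Model against YJZYT. The split took a median of 88.3% over the 81 muscle genes, 94.6% over slow fibre genes, 98.2% over the mitochondrial genome proteins and 84.8% over fatty acid oxidation genes, beside 19.6% over all tested genes. Nuclear respiratory chain genes gave 6.55% to the split and 60.8% to Model against YJZYT. Osteoblast genes gave 0.883% to the split and 65.97% to SYT against YJT, and erythroid genes 0.731% to the split and 81.6% to Model against YJZYT. Muscle and mitochondrial values chose the split, so their high shares are part of that choice.

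Hormone and stress lists differed less. Glucocorticoid response genes were higher in SYT and YJT for 12 of 14 members with a median of 0.48 (with 1 library left out 0.29 without YJT1 to 0.79 without Model1), but Model lay near SYT and YJT in summed level: the group medians were 633 CPM in SYT, 646 in YJT, 646 in Model and 406 in YJZYT. Errfi1, a feedback inhibitor of the EGF receptor, had 28.4 to 109 CPM (median 35.3) in SYT and YJT and 10.8 to 57.6 CPM (median 18.1) in Model and YJZYT, and Per1, which is also a clock gene, differed by 1.02 ± 0.26 (SE). YJT1 held the most Errfi1 and Per1 of the 12 libraries. Immediate early genes were higher for 13 of 14 (median 0.34) and circadian clock genes for 14 of 16 (median 0.56, 0.37 without SYT3). The mean scores of the immediate early list were 0.05 in SYT, 0.17 in YJT, 0.01 in Model and -0.53 in YJZYT, so YJZYT was lowest and Model near SYT. Fosb, an immediate early factor, differed by 2.28 ± 0.79 (SE) with YJT1 at 17.5 CPM and the other 11 libraries at or below 4.3 CPM.

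Chaperones of the endoplasmic reticulum were lower in SYT and YJT for 18 of 19 members, with a median of -0.19. Hspa5 (BiP), the central one, had 253 to 386 CPM (median 317) in SYT and YJT and 299 to 571 CPM (median 415) in Model and YJZYT and a log2 fold change of -0.38 ± 0.14 (SE), and Creld2, Pdia4 and Hsp90b1 differed by -0.39 ± 0.13 (SE), -0.34 ± 0.13 (SE) and -0.30 ± 0.11 (SE). The Model libraries held the most Hspa5, while YJZYT overlapped SYT and YJT. Mean scores of the whole list were -0.05 in SYT, -0.18 in YJT, 0.27 in Model and -0.06 in YJZYT, so YJZYT lay between SYT and YJT. Among cytosolic heat shock genes 10 of 14 were lower (median -0.19, -0.12 without Model2), with Hsph1 at -0.66 ± 0.22 (SE). Cryab and Hspb1, small heat shock proteins abundant in muscle, went the other way with 2.76 ± 0.65 (SE) and 2.15 ± 0.44 (SE), and Cryab did not overlap. Mean scores of the cytosolic list were -0.13 in SYT, -0.03 in YJT, 0.16 in Model and -0.05 in YJZYT, so YJZYT again lay between SYT and YJT.

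Markers of other cells that bone samples can hold were read over whole lists. Osteoblast genes were higher for 11 of 14 with a median of 0.08, which was 4 of 14 without scaling factors, and the median went from -0.30 without YJT1 to 0.41 without YJZYT1. Their summed level was 3953 to 112054 CPM in SYT and YJT and 5085 to 65426 CPM in Model and YJZYT. Col1a1 differed by 0.13 ± 0.67 (SE) and osteocalcin (Bglap) by -0.11 ± 0.47 (SE), so both sides overlapped widely. Osteocyte genes were lower for 8 of 10 (median -0.27, -0.82 without SYT3 to 0.02 without Model3), with the Wnt inhibitor Sost at -1.81 ± 0.61 (SE). Sost stood at 2.43, 1.99 and 5.7 CPM in Model1 to Model3, 16.98, 1.18 and 6.59 in YJZYT1 to YJZYT3, 0.825, 0.87 and 3.59 in SYT1 to SYT3, 1.88, 1.18 and 0.802 in YJT1 to YJT3, and 21.1, 5.7 and 17.3 in Blank1 to Blank3. YJZYT1 and YJZYT3 were the highest in Sost of the 12 libraries, and YJZYT2, Model1 and Model2 lay below SYT3 and so overlapped SYT and YJT. Osteoclast genes were lower for 10 of 13 (median -0.25, -0.52 without YJT1 to -0.11 without YJZYT1). Mean scores of the osteocyte list were 0.31 in SYT, -1.14 in YJT, 0.52 in Model and -0.38 in YJZYT. For osteoclast genes they were 0.49, -0.87, 0.49 and -0.24 in the same order. In both lists YJT was the lowest of these groups and SYT lay above YJZYT.

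Tendon and fibroblast genes were higher in SYT and YJT for 18 of 18 members (median 0.72, summed level 1462 to 6147 CPM in SYT and YJT and 633 to 4333 CPM in Model and YJZYT). Their mean scores were 0.50 in SYT, 0.08 in YJT, 0.23 in Model and -1.12 in YJZYT, so YJZYT was low and Model lay between SYT and YJT. Model was above YJZYT for 18 of 18 members, with a median of 1.02. Smooth muscle and pericyte genes were higher for 11 of 12 (median 0.81, 231 to 649 CPM in SYT and YJT and 225 to 431 CPM in Model and YJZYT), and endothelial genes for 13 of 15 (median 0.30, 0.13 without SYT3). The group medians of the summed level were 364 CPM in SYT, 331 in YJT, 395 in Model and 231 in YJZYT for smooth muscle and pericyte genes and 392 CPM in SYT, 422 in YJT, 403 in Model and 309 in YJZYT for endothelial genes. YJZYT was the lowest group in both lists, while the summed level of Model was above that of SYT. Acta2 and Myh11, the actin and the myosin of smooth muscle, differed by 1.18 ± 0.34 (SE) and 1.13 ± 0.32 (SE), less than the genes of skeletal muscle. Cartilage genes were higher for 15 of 15 (median 1.02), but the median went from -0.41 without YJT1 to 1.72 without YJZYT1, and Col2a1, the cartilage collagen, ran from 15.5 to 16824 CPM over the 12 libraries. The part of these soft tissue lists in the muscle difference was not tested.

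Fat markers were higher for 15 of 17 (median 0.26, 0.14 without SYT2 to 0.52 without Model1), with the fatty acid carrier Fabp4 at 1.13 ± 0.27 (SE) and adiponectin (Adipoq) at 0.15 ± 0.56 (SE). Of 4 tested brown fat markers, Cox8b, a cytochrome c oxidase subunit of muscle and brown fat, did not overlap and differed by 3.02 ± 0.69 (SE). The other three overlapped, with 1.31 ± 0.41 (SE) for Cidea and 0.53 ± 0.46 (SE) for Ppara, and Dio2, which activates thyroid hormone, went the other way with -0.21 ± 0.44 (SE). The summed brown fat list was 9.97 to 23.7 CPM in SYT and YJT and 1.02 to 6.81 CPM in Model and YJZYT. The score of this list, a median over its genes, overlapped, with -0.06 to 0.63 in SYT and YJT and -1.48 to 0.21 in Model and YJZYT.

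Most blood and marrow lists had small medians that moved with single libraries, and 2 values in a bracket give the lowest and highest median with 1 library left out. Haemoglobin transcripts took 10.2% ± 4.15 (SD, n = 6) of counts in SYT and YJT and 11.5% ± 6.28 in Model and YJZYT. Erythroid genes had a median of 0.07 (-0.29 without SYT2 to 0.38 without Model1), neutrophil genes 0.08 (-0.56 without SYT1 to 0.33 without SYT3) and T and NK cell genes 0.10 (-0.24 without YJT2 to 0.39 without YJZYT1). Without scaling factors the medians were -0.04, -0.04 and -0.05. B cell genes were lower in SYT and YJT for 18 of 20 (median -0.35, -0.18 without YJZYT2) and plasma cell genes for 9 of 9 (-0.45, -0.28 without YJZYT2). Mean B cell scores were 0.01 in SYT, -0.25 in YJT, 0.37 in Model and -0.06 in YJZYT, so YJZYT was below SYT. Model was above YJZYT for 20 of 20 B cell genes. Cell division genes were lower for 15 of 17 (-0.19, -0.35 without SYT2 to -0.06 without SYT3), with mean scores of -0.29 in SYT, 0.09 in YJT, -0.19 in Model and 0.44 in YJZYT, so Model was below YJT. Monocyte and macrophage genes were lower for 11 of 16 (-0.15, -0.27 without YJT1 to -0.03 without YJZYT1), and nerve and Schwann cell genes higher for 8 of 11 (0.31, 0.07 without YJT1). Mean monocyte and macrophage scores were 0.01 in SYT, -0.37 in YJT, 0.16 in Model and -0.26 in YJZYT, so YJZYT was again below SYT. Megakaryocyte and platelet genes were lower for 16 of 17 (median -0.79, -1.25 without SYT2 to -0.04 without Model1). Their mean scores were -1.44 in SYT, 0.16 in YJT, -0.13 in Model and 0.32 in YJZYT, so YJT was above Model. Of the 17 members, 0 were higher in SYT than in YJT, with a median of -1.51.

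**Figure D4:**
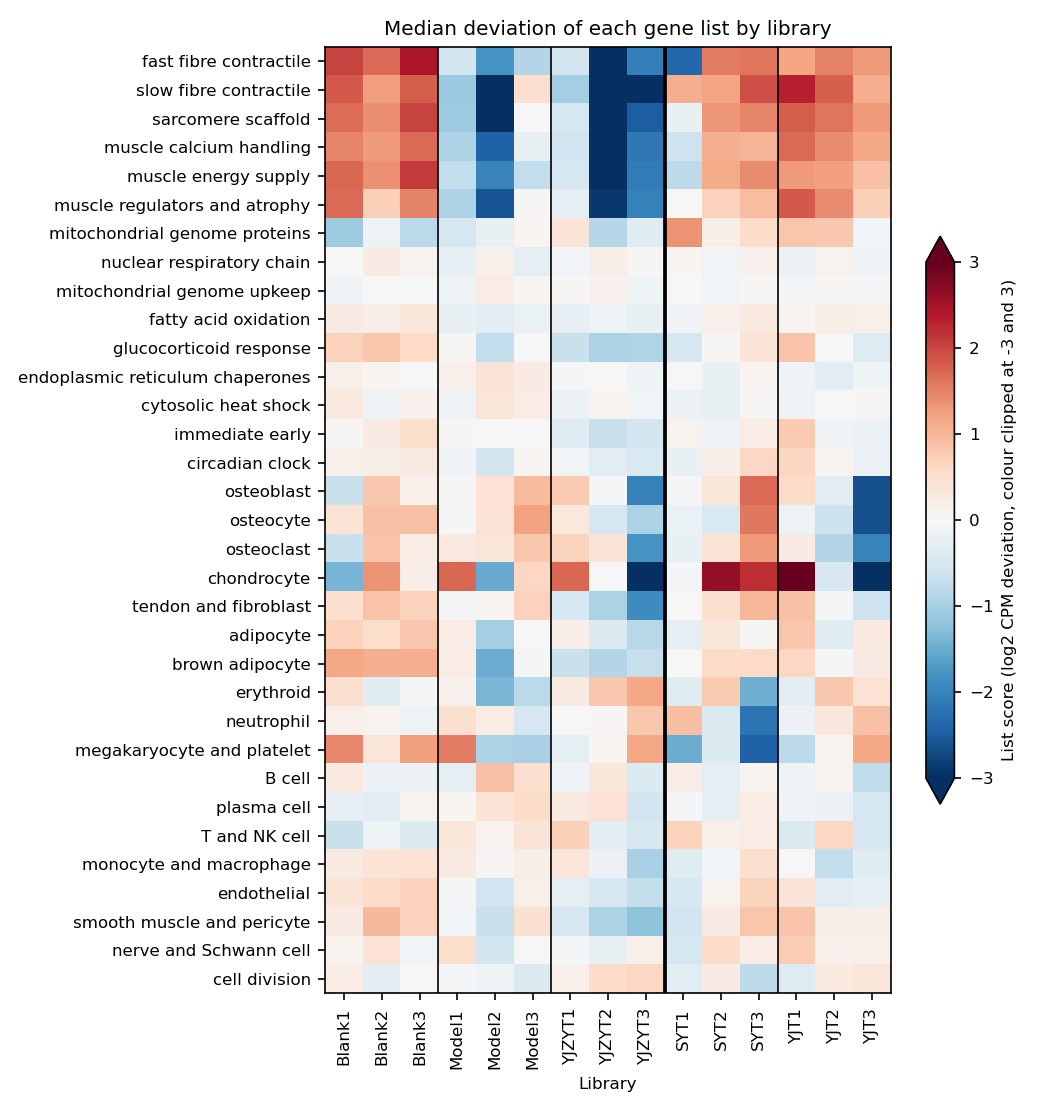
List scores (median deviation of a list's genes, in log2 CPM) of 33 gene lists in each library, with red for high and blue for low and colours clipped at -3 and 3. The thick line separates Blank, Model and YJZYT on its left from SYT and YJT on its right. The muscle lists at the top are mostly below 0 in Model and YJZYT and above 0 in Blank, SYT and YJT. SYT1 is below 0 in 5 of the 6 and at 1.10 in slow fibre genes. Osteoblast genes are lowest in YJT3 (-2.63) and YJZYT3 (-2.02), 1 library of each side.

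Whether the groups placed together differ from each other was tested in the same fit. On simulated data such a fit recovered 11.9% of 2-fold changes in either comparison. A count of 0 called genes therefore does not show that the groups are alike. Between SYT and YJT, edgeR called 0 of 17657 genes (0%) at an adjusted p of 0.05, with 538 (3.05%) at an unadjusted p under 0.05 and 8 called by DESeq2. Septin7, a cytoskeletal GTPase, did not pass, although its groups were far apart: it held 23.8 ± 4.73 CPM in SYT and 70.6 ± 6.15 CPM in YJT (SD, n = 3), a log2 fold change of -1.57 ± 0.33 (SE) with an edgeR adjusted p of 0.931. Model held 75.4 ± 10.5 CPM and YJZYT 74.6 ± 16.9 CPM, so SYT stood below the other 3 ovariectomized groups. Apold1, an endothelial gene, and Gja3, a gap junction protein, were lower in SYT without passing (-0.77 and -1.53). Dnase2, Etfrf1 and Gga2 were higher in SYT without passing, by 0.72, 0.79 and 0.47. The same edgeR adjusted p of 0.931 belongs to these 5 genes.

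Muscle lists had lower medians in SYT than in YJT, while 51.4% of all tested genes were higher in SYT. Of 10 slow, 17 scaffold and 13 calcium genes, 0 were higher in SYT, with medians of -0.47, -0.56 and -0.70. Mitochondrial genome proteins were higher in SYT for 12 of 13, with a median of 0.17. These directions rest in part on single libraries. Without SYT1, 30 of the 81 muscle genes were higher in SYT, beside 9 with all libraries, and their median was -0.15 in place of -0.48. The fast fibre and energy medians then turned to 0.15 and 0.13. Of the slow, scaffold and calcium genes, 0, 3 and 1 were then higher in SYT, and the slow median was -0.16 without YJT1. Of the 13 mitochondrial proteins, 0 were higher in SYT without SYT1 and 2 without YJT3, with medians of -0.21 and -0.07.

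Between Model and YJZYT, edgeR also called 0 of 17657 genes (0%), with 1287 (7.29%) at an unadjusted p under 0.05 and 64 called by DESeq2. Tsc22d3 (GILZ), a glucocorticoid target, held 93.3 ± 5.75 CPM in Model and 44.3 ± 6.48 CPM in YJZYT (SD, n = 3), a log2 fold change of 1.07 ± 0.24 (SE) with an edgeR adjusted p of 0.638. The 3 Model libraries lay above the 3 YJZYT libraries, but the difference did not pass. C1qtnf12, a secreted C1q and TNF related protein, Mrap, an accessory protein of the ACTH receptor, and Hsd3b7, an enzyme of bile acid synthesis, were lower in Model, by -1.92, -2.05 and -1.01, and Aspnl1 was higher by 2.10. None of these 4 passed, with the same edgeR adjusted p of 0.638. Of the 81 muscle genes, 70 were higher in Model than in YJZYT (median 0.69), beside 57.6% of all tested genes. Without Model3, 42 of the 81 were higher in Model (median 0.05), and the median was 2.09 without YJZYT1 and 0.26 without YJZYT2.

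Finally, both readouts behind the split were related to each other within each side. The split used their group levels, so these relations are not independent of it in full. Their p-values are given as a description, and nothing is read from them. The permutations shuffled all 6 libraries of a side without regard to group, so a difference between its groups is part of each relation. Over the 6 libraries of SYT and YJT, the muscle share and the mitochondrial share had Pearson's r = -0.598 (exact permutation p = 0.206, adjusted over 4 relations 0.274) and Spearman's rho = -0.143 (exact permutation p = 0.803, adjusted 0.803). Leaving out SYT1 and YJT1, the libraries farthest from the median muscle share, gave r = -0.0814, and leaving out SYT1 alone gave r = 0.569, so the sign rests on SYT1. Over the 6 libraries of Model and YJZYT, r was 0.667 (exact permutation p = 0.135, adjusted 0.269) and rho 0.771 (exact permutation p = 0.103, adjusted 0.206), and r was 0.408 without Model3 and YJZYT2. SYT1 combined the lowest muscle share of its side with the highest mitochondrial share of all 15 libraries, and the 3 Blank libraries also combined muscle shares above the other 12 with mitochondrial shares of at most 10.7%.

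Against the score of the nuclear respiratory chain genes, the muscle share had r = -0.318 in SYT and YJT (exact permutation p = 0.693, adjusted 0.693) and rho = -0.257 (exact permutation p = 0.658, adjusted 0.803). In Model and YJZYT, r was -0.921 (exact permutation p = 0.0292, adjusted 0.117) and rho -0.829 (exact permutation p = 0.0583, adjusted 0.206), and r was -0.835 without Model3 and YJZYT2. On this side the nuclear score averaged -0.14 in Model and 0.04 in YJZYT, and the muscle share 0.197% and 0.137%. The r of this side includes that difference between groups. None of the 4 relations passed after adjustment.

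**Figure D5:**
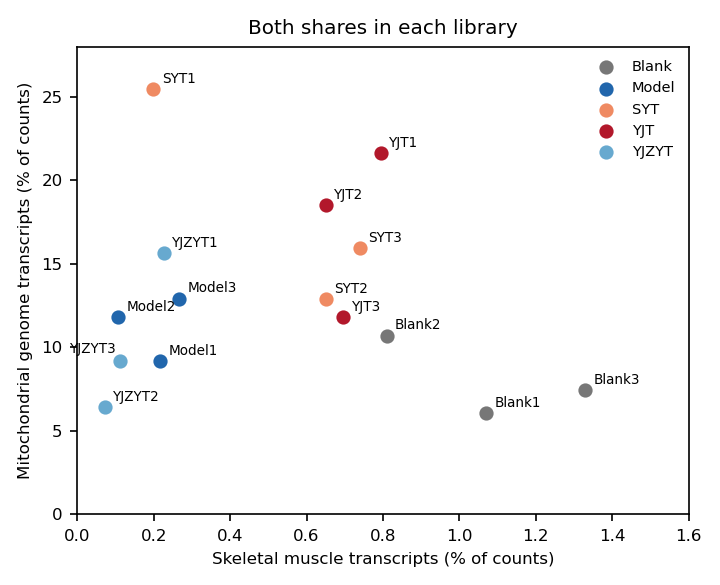
Share of counts on genes of the mitochondrial genome (vertical axis, %) against the share on 81 skeletal muscle genes (horizontal axis, %). Each point is a library coloured by group. SYT1 lies at 0.199% and 25.5%, and the Blank libraries lie to the right at 0.810% to 1.33% with 6.07% to 10.7% mitochondrial transcripts.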

How the data were processed

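Bone RNA of 15 samples (3 per group, grouped by the condition label and numbered by title) was poly(A) selected and sequenced as paired ends with molecular identifiers, per the labels' protocols. Tools listed in the submitters' processing notes, without their roles, are edgeR, DESeq2, StringTie 1.3.4d, UMI-tools, HISAT2 2.0.4 and cutadapt 1.9. No source used here gives the genome build, annotation, counting step, strand setting or use of the molecular identifiers, so overlapping and antisense genes may share reads. Per the file headers, the deposited table holds a count and an FPKM value made by the authors for each of 22468 genes and library.

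The deposited counts were fitted with edgeR 4.0.16 in R 4.3.3 (filterByExpr, which left out 4811 genes, TMM factors, robust quasi-likelihood, 1 mean per group, all 15 libraries, 10 residual degrees of freedom), with Benjamini-Hochberg adjustment over 17657 genes at 0.05. The biological coefficient of variation was 42.7%. An SE is the log2 fold change divided by the root of its F statistic. List scores used log2 CPM with a prior count of 2. Genes named are the 10 per direction with the smallest p among those with a symbol, 1 FPKM and no overlap between the sides, up to 4 members per list by p, the 13 mitochondrial protein genes, 12 key bone and fat genes, and, for SYT against YJT and Model against YJZYT, 3 per direction; muscle members outside this were added after their values were seen. Alternatives were RLE size factors, DESeq2 1.42.0, limma 3.58.1 on log2(FPKM + 1) and log2(FPKM + 0.1), other filters, no scaling factors, a replicate block and leaving libraries out. The statistics were tested on simulated data at an adjusted p of 0.05. Of 2-fold, 4-fold and 8-fold changes, 29.9%, 74.6% and 81.8% were recovered for the split. These shares were 11.9%, 58.2% and 75.8% for SYT against YJT, and 11.9%, 55.2% and 68.2% for Model against YJZYT. False calls were 4 of 128, 4 of 101 and 1 of 91 in the same order. The 12 libraries, the 33 lists and the tests were chosen with earlier results of these data known. Promoters are from RefSeq, assembly GRCr8.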

Additional observations from a re-analysis of the deposited data

Results flagged for a closer look

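In groups of 6 libraries, a library was looked at again when its gap to the nearest other library was large against the range of the group (Dixon's test at 95%). Of 76 such groups, 9 held one, where 3.8 would be flagged by chance if each group of 6 were 1 uniform population. Each instead joins 2 condition groups, and the measures are not independent, so the 9 and the 3.8 are no test. The muscle values among them also chose the split. Among SYT and YJT, SYT1 stood apart in its muscle share (0.199% of counts) and in the list scores of fast fibre genes (-2.35), sarcomere scaffold genes (-0.23), muscle calcium handling genes (-0.62) and muscle energy genes (-0.79), which share the same library and are not independent. In the same 6 libraries, SYT3 stood apart in Col1a1, at 7.10% of counts. Among Model and YJZYT, YJZYT2 stood apart in fast fibre genes (-5.94), and YJZYT3 in osteoblast genes (-2.02) and osteoclast genes (-1.77). What sets these libraries apart was not tested.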

How the results depend on the processing

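Of the counts past the threshold, the 37 genes higher in SYT and YJT became 441 with DESeq2, 60 with limma on log2(FPKM + 0.1), 107 with limma on log2(FPKM + 1), 4 at a mean FPKM of at least 5, 1 without scaling factors, 0 with the 12 ovariectomized libraries alone, 1 without YJT3 and YJZYT3, and 625 at an unadjusted p of 0.05 with a 2-fold change; RLE size factors, mitochondrial genes removed before TMM and no low-count filter gave 37, 37 and 36. Leaving out 1 library gave 0 (without YJT2) to 218 (without YJZYT1), with 121 without SYT1 and 85 without Model3. The 0 genes lower became 8 with DESeq2, 1 with either limma fit, 62 unadjusted, and 0 to 3 with 1 library left out. For SYT against YJT the 0 became 8 with DESeq2, 270 unadjusted and 0 to 1 with 1 library left out, and for Model against YJZYT 64, 506 and 0 to 1. The cause of these moves was not tested, apart from the fewer genes or libraries of some settings. Fitted with the replicate number as a block, the 37 became 5. Deviations of same-numbered libraries had correlations from -0.42 to 0.40 (median -0.02, 30 pairs), beside a median of 0.01 for other numbers (60 pairs). The labels give same-numbered samples only a number in common, and a shared batch was not tested. The relation of muscle and mitochondrial shares within SYT and YJT turned to r = 0.569 without SYT1 (range from -0.869 with 1 library left out), and that of the muscle share and the nuclear respiratory chain to 0.296 without the 2 farthest libraries; within Model and YJZYT the latter was -0.963 to -0.883 with 1 library left out, and without Model1 it was -0.956 and passed after adjustment (0.0333). The muscle and mitochondrial share differences moved by less than the spread between replicates under their alternatives. Without scaling factors the median of all genes was -0.11 in place of 0.01, so log2 differences of that size have no fixed direction; counts outside the mitochondrial genome were 82.3% in SYT and YJT and 89.1% in Model and YJZYT, a log2 ratio of -0.12. With 3 libraries a group, spread between libraries and not depth limits the precision, except for genes near 1 CPM.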
